A study of Mus musculus with 6 samples.

Results

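The HoxB cluster is a run of homeobox genes on mouse chromosome 11. Its 10 members are Hoxb1, Hoxb2, Hoxb3, Hoxb4, Hoxb5, Hoxb6, Hoxb7, Hoxb8, Hoxb9 and Hoxb13. They were taken by symbol from 26567 genes that could be paired with the deposited transcripts, with earlier results of these data known. They were read in bulk RNA-seq of sorted cap mesenchyme, the layer of nephron progenitors that caps each ureteric tip. The kidneys came from C57BL/6 mice at embryonic day 18.5. There were 3 Dnmt1 KO libraries (genotype Dnmt1 -/-) and 3 Dnmt1 HET libraries (genotype Dnmt1 +/-), so the HET cells also lacked 1 copy of the gene. All animals carried Six2.Cre, which acts in Six2-expressing progenitors and their descendants, so other cells carried over in the sort would keep Dnmt1. The labels give no control without Cre, nor whether the libraries came from separate embryos, so the tests cover the spread among these 6 libraries and no more.

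Hox genes encode transcription factors that give cells their position along the body axis. They sit in 4 clusters, HoxA to HoxD, and genes with the same number in different clusters are paralogs that often act together. Within a cluster, genes at the low-numbered end are switched on earlier and further forward in the embryo than genes at the high-numbered end. The clusters are known for being held silent by Polycomb proteins, and their promoter regions are rich in CpG, the base pair step whose methylation Dnmt1 copies after replication. In the kidney, the Hox10 and Hox11 paralogs are known for their role in nephron progenitors, HoxB has no gene with either number, and Hoxb7 is known for its activity in the ureteric bud.

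Dnmt1 and the cell type were checked first. Dnmt1 was at 20.9, 18.6 and 14.9 CPM (estimated counts relative to the TMM-normalised library size) in KO libraries and at 40.04, 52.4 and 51.7 CPM in HET libraries, and its counts include any part of the transcript that the deletion left. Cap mesenchyme markers were present, with none of 12 at 0 and 3 of 12 lower in KO by the test, and their summed level was 1361 to 1668 CPM in KO and 1937 to 2039 CPM in HET libraries. Total estimated counts lay between 46741667 and 61585484 per library. Beside the counts of passing markers given here, 4.92% of all 16989 genes tested were higher and 1.92% lower in KO. Markers of other cell types were uneven. Summed over 16 ureteric bud markers the level was 412, 216 and 130 CPM in KO replicates 1 to 3, against 123 to 143 CPM in HET libraries, and 1 of the 16 passed the test as higher. Over 10 endothelium markers it was 220, 90.8 and 49.1 CPM in KO replicates 1 to 3, against 35.1 to 41.9 CPM in HET libraries, with 1 of 10 higher. Stroma markers (11, 1 of them higher) lay at 452 to 1227 CPM in KO and 419 to 511 CPM in HET libraries, macrophage markers (9, 1 higher) at 19.6 to 28.6 CPM in KO and 15.04 to 16.6 CPM in HET libraries. Podocyte markers (6, 2 of them lower) lay at 47.6 to 65.5 CPM in KO and 71.8 to 81.02 CPM in HET libraries, tubule markers (8, 1 higher) at 42.8 to 150.1 CPM in KO and 42.8 to 71.02 CPM in HET libraries. Neuron and neural crest markers (6 tested, 1 higher) lay at 67.1 to 75.5 CPM in KO and 60.4 to 74.1 CPM in HET libraries, erythroid markers (4 tested, 0 of them passing) at 220.2 to 484.9 CPM in KO and 284.9 to 653.5 CPM in HET libraries. None of the annotated genes of these 8 lists was at 0 in a whole group. Their part in the HoxB values was not tested.

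**Figure D1:**
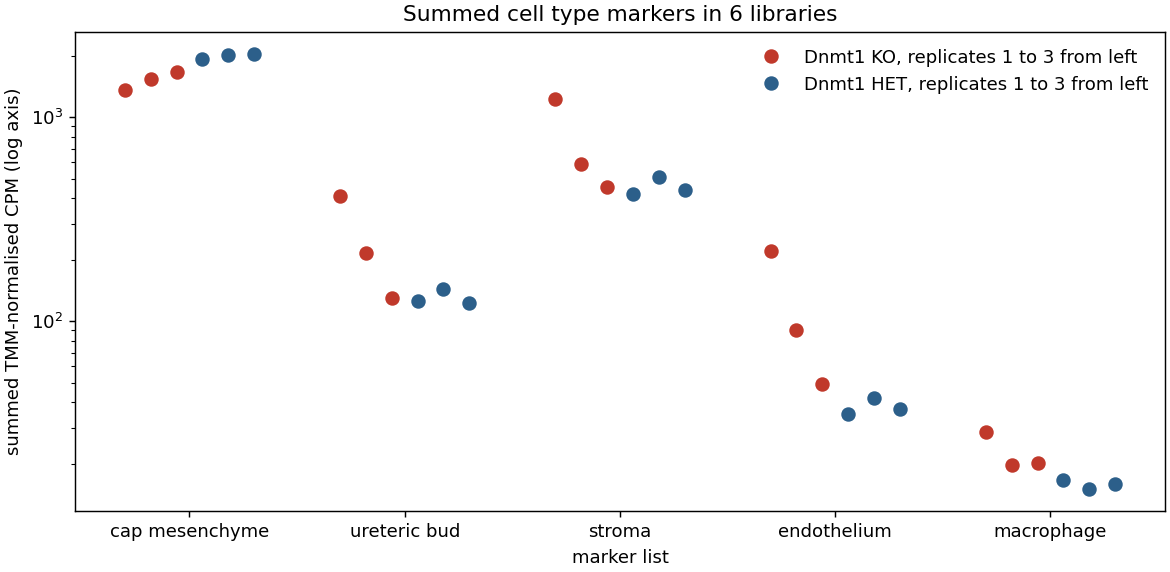
Summed TMM-normalised CPM (log axis) of 5 marker lists in each library, KO replicates 1 to 3 and then HET replicates 1 to 3 from left to right within each list. KO replicate 1 had the highest sums for ureteric bud (412 CPM), stroma (1227 CPM) and endothelium (220 CPM), and the lowest for cap mesenchyme (1361 CPM).

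HoxB transcripts were present in both groups, and 8 of the 9 genes tested did not pass the test between them. In Dnmt1 KO libraries Hoxb3 fell to 26.5 ± 1.66 CPM, against 39.8 ± 6.31 CPM in HET libraries (SD, n = 3 each), and it was the one member that passed the test. Hoxb6, at 10.02 ± 0.439 CPM in KO and 13.5 ± 0.963 CPM in HET libraries, missed the threshold. Hoxb9, the most abundant member, had nearly the same level in both groups, at 86.05 ± 1.29 CPM in KO and 80.2 ± 5.46 CPM in HET libraries. Hoxb13 was not detected in any library.

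Of the 10 members 9 passed the filter on low counts. By edgeR's quasi-likelihood test (threshold 0.05 for p adjusted by Benjamini-Hochberg), 0 of these 9 were higher, 1 was lower and 8 did not pass. Among all 16989 genes tested 6.85% passed, 4.92% as higher and 1.92% as lower in KO. At an unadjusted p under 0.05, 1 member (Hoxb8) was higher and 2 (Hoxb3 and Hoxb6) were lower by edgeR, beside 12.4% and 9.61% of all genes tested. No member was higher by DESeq2 or limma voom either, while DESeq2 called 2 lower. The median log2 fold change of the 9 members was -0.22, beside a median of -0.003 over all genes. Below 0 were 66.7% of the members tested and 50.4% of all genes tested. Scaling to library totals moved the median of all genes by about as much as that of the members, to -0.17 and -0.39, so the gap between them was -0.22 with TMM and -0.22 with totals.

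**Figure D2:**
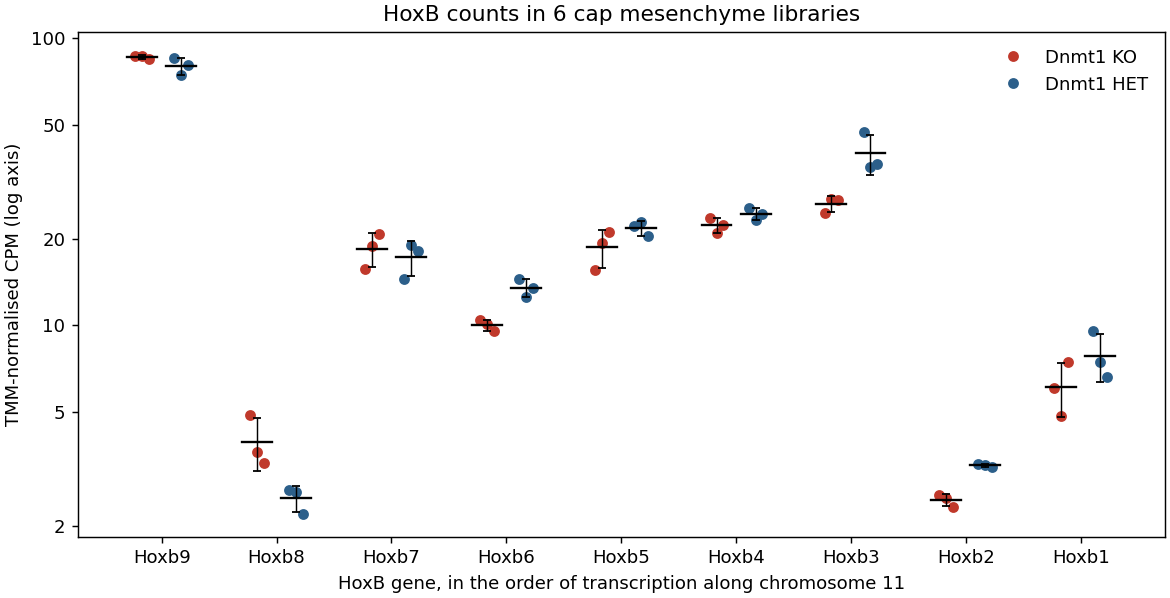
TMM-normalised CPM (log axis) of 9 HoxB genes in order along chromosome 11, with KO points left of HET points, bars at the group means and error bars of 1 SD (n = 3 each). The groups are apart for Hoxb8, where KO is higher, and for Hoxb6, Hoxb3 and Hoxb2, where KO is lower. Hoxb13, at 0 in all 6 libraries, is not drawn.

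In the annotation of NCBIM37 the cluster runs on the forward strand of chromosome 11 from 96055630, the start of Hoxb13, to 96229570, the end of Hoxb1. RefSeq promoter sequences were at hand for 3 of the 10 members, and these 3 are shown because CpG sites are the substrate of Dnmt1. None of the 3 genes passed the test, and Hoxb3, which did, is not among them. A link between CpG sites and fold changes was not tested. Each sequence runs from 250 bases before to 50 bases after the gene start, on the forward strand of GRCm38.p6, with CpG sites in capitals. Hoxb8 lies at chr11:96281655-96281954, Hoxb4 at chr11:96318017-96318316 and Hoxb1 at chr11:96365508-96365807.
Hoxb8: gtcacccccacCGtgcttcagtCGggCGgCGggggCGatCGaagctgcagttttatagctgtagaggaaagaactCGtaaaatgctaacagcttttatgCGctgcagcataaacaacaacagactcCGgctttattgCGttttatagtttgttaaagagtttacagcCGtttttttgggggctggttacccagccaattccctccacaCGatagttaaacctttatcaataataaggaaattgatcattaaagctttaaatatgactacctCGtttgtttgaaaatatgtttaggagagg
Hoxb4: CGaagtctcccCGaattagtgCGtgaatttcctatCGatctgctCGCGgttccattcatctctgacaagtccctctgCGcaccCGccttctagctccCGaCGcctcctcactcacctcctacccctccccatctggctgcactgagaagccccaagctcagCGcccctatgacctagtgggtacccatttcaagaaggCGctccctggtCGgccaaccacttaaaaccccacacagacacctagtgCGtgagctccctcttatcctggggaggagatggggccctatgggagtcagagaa
Hoxb1: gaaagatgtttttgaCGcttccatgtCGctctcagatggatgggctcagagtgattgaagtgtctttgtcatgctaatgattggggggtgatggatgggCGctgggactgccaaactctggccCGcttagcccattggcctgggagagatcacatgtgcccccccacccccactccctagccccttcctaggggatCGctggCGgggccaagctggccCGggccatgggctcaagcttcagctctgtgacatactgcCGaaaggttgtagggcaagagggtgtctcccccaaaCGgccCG
The Hoxb8 promoter held 13 CpG sites, the Hoxb4 promoter 14 and the Hoxb1 promoter 10, against a median of 7 over the 32851 promoters in the table. At least as many were held by 37.9%, 36.3% and 43.5% of these promoters, so such counts are common. The ratio of observed to expected CpG was 0.97 for Hoxb8, 0.593 for Hoxb4 and 0.38 for Hoxb1 (median 0.384). The letters TGATNNAT, a form of the site that PBX and Hox proteins bind together, were searched on both strands. They occurred once in Hoxb1, as tgatggat at -162 to -155 from the gene start, and once in Hoxb8, on the reverse strand at -11 to -4, and 8.8% of all promoters in the table held them. Methylation was not measured in these libraries.

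The anterior members come first. Hoxb1, a gene of the hindbrain, was at 6.07, 4.82 and 7.43 CPM in KO libraries and at 9.53, 7.44 and 6.60 CPM in HET libraries. The groups overlapped, with a log2 fold change of -0.36 ± 0.22 (SE; adjusted p = 0.36 by edgeR). Hoxb2, another hindbrain patterning gene, was at 2.57, 2.51 and 2.34 CPM in KO libraries and at 3.29, 3.27 and 3.22 CPM in HET libraries. All KO values lay below all HET values, yet the counts were low and the log2 fold change of -0.40 ± 0.22 (SE) did not pass (edgeR, adjusted p = 0.325).

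Hoxb3, which acts in the hindbrain, the neck and blood-forming cells, was at 24.5, 27.5 and 27.4 CPM in KO libraries and at 47.1, 35.7 and 36.6 CPM in HET libraries. All KO values lay below all HET values, and HET replicate 1 stood above the other HET libraries. Hoxb3 fell by 0.59 ± 0.12 on the log2 scale (SE; adjusted p = 0.0166 by edgeR), or 33.5%. In bulk RNA, fewer cells that express a gene and less of its RNA per cell cannot be told apart. Without KO replicate 1 the adjusted p was 0.0505 and without KO replicate 2 it was 0.0712, with sex as a covariate 0.0547, and on log2(TPM + 1) without a filter 0.0914 (edgeR, and limma for TPM). The log2 fold change stayed between -0.76 and -0.45 over the main and all 20 other settings. Y-linked genes summed to above 50 CPM, read as male, in KO replicate 2 (185 CPM) and HET replicates 1 and 3 (309 and 256 CPM). The other libraries lay at 7.79 to 10.4 CPM, so sex was unevenly spread over the groups.

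Hoxb4, known for expanding blood stem cells, was at 23.7, 21.0 and 22.4 CPM in KO libraries and at 25.6, 23.4 and 24.4 CPM in HET libraries. The groups overlapped and the log2 fold change was -0.13 ± 0.10 (SE; edgeR, adjusted p = 0.482). Hoxb5, a gene of the gut and lung mesenchyme and of enteric neural crest, was at 15.6, 19.4 and 21.1 CPM in KO libraries and at 22.2, 22.9 and 20.4 CPM in HET libraries. KO replicate 1 was the lowest, KO replicate 3 lay within the HET range, and the log2 fold change was -0.22 ± 0.13 (SE; edgeR, adjusted p = 0.353).

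Hoxb6, expressed in lateral mesoderm and the limb field, was at 10.4, 10.1 and 9.55 CPM in KO libraries and at 14.5, 12.5 and 13.6 CPM in HET libraries. All KO values lay below all HET values and close together. The log2 fold change of -0.43 ± 0.13 (SE) had an adjusted p = 0.0801 by edgeR, 0.0366 by DESeq2 and 0.0204 by edgeR with library totals. Hoxb7 was at 15.8, 18.9 and 20.8 CPM in KO libraries and at 14.6, 19.0 and 18.2 CPM in HET libraries. The groups overlapped and the log2 fold change was 0.10 ± 0.15 (SE; edgeR, adjusted p = 0.72), turning to -0.06 with library totals and to -0.01 without HET replicate 1. Less the median of all genes in the same setting, Hoxb7 was at 0.10 with library totals and at -0.01 without HET replicate 1. In KO replicate 1, where the ureteric bud markers were highest, Hoxb7 had its lowest KO value. Among HET libraries, replicate 2 was highest for these markers (143 CPM) and for Hoxb7 (19.0 CPM). A link between the markers and Hoxb7 was not tested.

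Hoxb8, a gene of the trunk that also acts in blood-forming progenitors, was at 4.86, 3.63 and 3.32 CPM in KO libraries and at 2.66, 2.64 and 2.21 CPM in HET libraries. All KO values lay above all HET values, and KO replicate 1 was the highest, as it was for the summed ureteric bud, stroma, endothelium, macrophage and tubule markers, but not for the podocyte, neuron or erythroid ones. The log2 fold change was 0.65 ± 0.24 (SE; edgeR, adjusted p = 0.15), with 0.48 without KO replicate 1 and 0.23 on log2(TPM + 1), where the groups overlapped. Hoxb9, a gene of thoracic patterning, was at 87.0, 86.6 and 84.6 CPM in KO libraries and at 85.4, 74.5 and 80.6 CPM in HET libraries. The groups overlapped and the log2 fold change was 0.10 ± 0.08 (SE; edgeR, adjusted p = 0.488), turning to -0.06 with library totals and to -0.01 on log2(TPM + 1). Hoxb13, the most posterior member and known from the prostate and tail bud, had 0 estimated counts in all 6 libraries. A count of 0 allows up to 3 counts, or 0.0579 to 0.0636 CPM in KO and 0.051 to 0.0662 CPM in HET libraries, for counting error only.

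By position in the cluster, Hoxb9, Hoxb8 and Hoxb7 had fitted log2 fold changes above 0, while the 6 genes after them, Hoxb6 to Hoxb1, lay below 0. The negative sign held for these 6 genes in the main and all 20 other settings. That of Hoxb8 was positive in all of them, while Hoxb9 turned in 4 and Hoxb7 in 2. Relative to the median of all genes in each of the 21 settings, Hoxb9 lay above it in 21. Hoxb7 lay above that median in 19 and below it in 1. Since 8 of the 9 differences did not pass, this is an order of fitted values only. In CPM, all KO values lay below all HET values for 3 of the 9 members (Hoxb6, Hoxb3 and Hoxb2) and above them for 1 (Hoxb8), beside 14.2% and 14.8% of all genes tested.

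**Figure D3:**
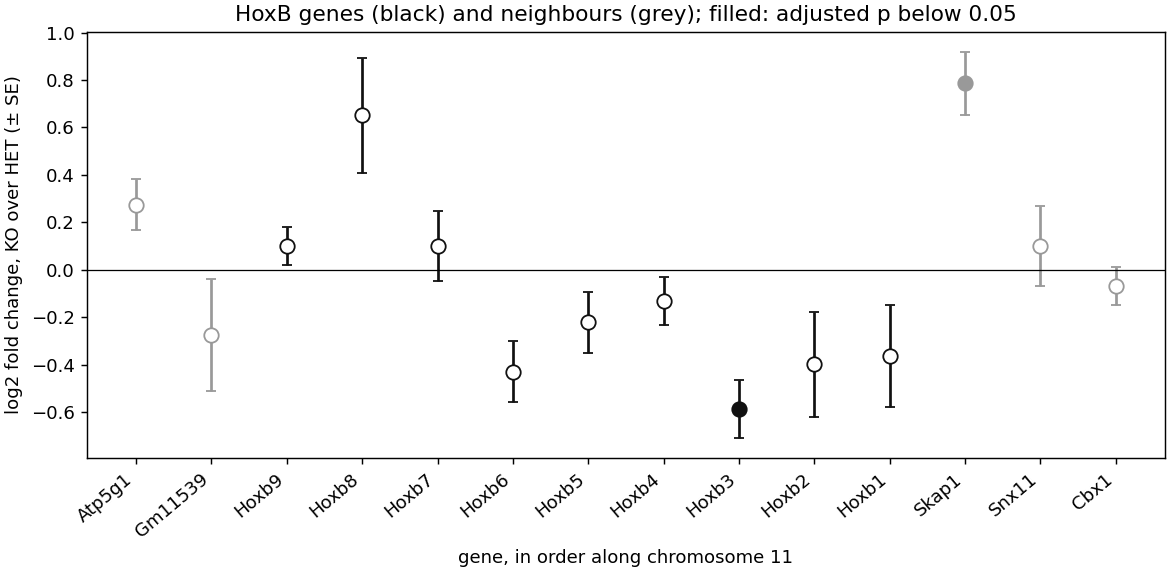
Log2 fold change of KO over HET with its SE for 9 HoxB genes (black) and detected neighbours (grey) in order along chromosome 11, filled where the adjusted p was below 0.05. Hoxb3 (-0.59) is the one filled HoxB gene and Skap1 (0.79), beyond Hoxb1, is filled on the other side of 0.

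Genes around the cluster did not share one direction. Skap1, an adaptor of T cell receptor signalling and the nearest gene beyond Hoxb1, was at 21.8, 28.3 and 26.0 CPM in KO libraries and at 14.2, 13.5 and 16.5 CPM in HET libraries. All KO values lay above all HET values, and Skap1 rose by 0.79 ± 0.13 on the log2 scale (SE; edgeR, adjusted p = 0.00522). Past it, Snx11, a sorting nexin, had a log2 fold change of 0.10 ± 0.17, and Cbx1, a heterochromatin protein, of -0.07 ± 0.08 (SE; edgeR, adjusted p = 0.767 and 0.654). On the Hoxb13 side, Atp5g1, a subunit of mitochondrial ATP synthase, had 0.27 ± 0.11 (SE; adjusted p = 0.168), while Calcoco2 and Ttll6 were under 1 CPM. The pseudogene Gm11539, between Hoxb13 and Hoxb9, had a log2 fold change of -0.28 ± 0.24 (SE; edgeR, adjusted p = 0.523). Antisense genes and the miRNAs of the cluster were not analysed here. Since no source states that reads were counted by strand, a HoxB value may include reads of RNA from the opposite strand. The annotated spans of Hoxb8 and Hoxb7 also overlap, from 96145571 to 96146639, so reads in that stretch could be divided between them.

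Per length, the members spanned a wide range in both groups. Hoxb9 had the highest TPM (abundance per transcript length and library), 41.1 ± 2.03 in KO and 41.6 ± 4.64 in HET libraries (SD, n = 3 each). In KO libraries it was followed by Hoxb7 at 19.5 ± 1.52 TPM, Hoxb3 at 13.1 ± 1.07, Hoxb5 at 11.2 ± 1.39, Hoxb4 at 9.69 (SD 1.0), Hoxb6 at 6.60 ± 0.523, Hoxb1 at 4.74 ± 1.20, Hoxb8 at 1.98 ± 0.693 and Hoxb2 at 1.76 ± 0.136 TPM. The ranges of Hoxb3 and Hoxb5, of Hoxb5 and Hoxb4 and of Hoxb8 and Hoxb2 overlapped in KO. In HET libraries Hoxb3 was second at 20.8 ± 4.55 TPM and overlapped with Hoxb7 at 19.5 ± 0.726, followed by Hoxb5 at 14.3 ± 1.19, Hoxb4 at 11.5 ± 1.08, Hoxb6 at 9.26 ± 0.837, Hoxb1 at 6.60 ± 2.05, Hoxb2 at 2.52 ± 0.143 and Hoxb8 at 1.51 ± 0.180 TPM. Hoxb6 and Hoxb1 also overlapped in HET. Hoxb3 thus stood below Hoxb7 in every KO library, and Hoxb2 and Hoxb8 stood in the opposite order of means in the 2 groups. Hoxb3 made up 11.4% to 12.3% of HoxB TPM in KO and 15.0% to 18.2% in HET libraries, and Hoxb9 35.6% to 38.7% in KO and 31.3% to 33.8% in HET libraries. These gene levels include short transcripts that are not annotated as coding. Over the 6 libraries Hoxb1-002 held 37.6% to 49.2% of Hoxb1 TPM. Hoxb3-004 held 16.8% to 28.3% of Hoxb3 TPM, and Hoxb7-002 9.26% to 21.5% of Hoxb7 TPM.

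The tables listed 19 transcripts of the HoxB genes, of which 17 were tested and 2 (Hoxb13-001 and Hoxb8-201) were at 0 in all libraries. By edgeR over 50137 transcripts, of which 1.59% were higher and 0.199% lower, 0 HoxB transcripts passed in either direction. At an unadjusted p under 0.05 there were 2 higher and 3 lower among the 18 tested transcripts of the cluster, the pseudogene included, beside 7.94% and 5.51% of all transcripts tested, and DESeq2 called 0 higher and 1 lower. Hoxb3-002, the leading Hoxb3 transcript, was at 21.0, 25.04 and 23.4 CPM in KO libraries and at 38.7, 30.0 and 31.1 CPM in HET libraries, with a log2 fold change of -0.52 ± 0.13 (SE; edgeR, adjusted p = 0.144). All of its KO values lay below all HET values. Hoxb6 was carried mainly by Hoxb6-002, at 7.75, 6.37 and 7.33 CPM in KO libraries and at 11.8, 9.39 and 9.71 CPM in HET libraries. The other transcript, Hoxb6-001, overlapped between groups, at 1.60 to 3.39 CPM in KO and 1.11 to 2.69 CPM in HET libraries. Hoxb8-001 was at 4.26, 3.37 and 3.05 CPM in KO libraries and at 2.21, 2.21 and 1.86 CPM in HET libraries, with a log2 fold change of 0.77 ± 0.22 (SE; edgeR, adjusted p = 0.198). Of the 2 Hoxb9 transcripts, Hoxb9-002 was at 59.6, 62.4 and 57.2 CPM in KO and 51.05, 47.3 and 53.2 CPM in HET libraries, without overlap but not passing (edgeR, adjusted p = 0.284), while Hoxb9-001 was at 21.3 to 22.7 CPM in KO and 20.5 to 25.2 CPM in HET libraries. Transcripts of 1 gene overlap in sequence, so how reads were divided among them is an estimate.

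In the other clusters more genes passed as lower in KO. Of 10 HoxA genes tested 4 fell, of 8 HoxC genes 5 and of 8 HoxD genes 3, and none rose (edgeR, adjusted p below 0.05). At an unadjusted p under 0.05, 0, 0 and 1 of them were higher and 6, 6 and 4 lower by edgeR, beside 12.4% and 9.61% of all genes. DESeq2, limma voom and limma on log2(TPM + 1) called none higher, and DESeq2 called 4, 5 and 4 lower. The medians were -0.52, -0.53 and -0.40 on the log2 scale, beside -0.22 for HoxB. Whether the clusters differ was not tested. Hoxa5 (-0.98 ± 0.13), a lung and trunk gene, Hoxa3 (-0.96 ± 0.13), a neck and thymus gene, Hoxa10 (-0.64 ± 0.08) and Hoxa9 (-0.61 ± 0.09) fell in HoxA. Hoxc9 (-0.54 ± 0.08), Hoxc6 (-0.78 ± 0.14), Hoxc5 (-0.66 ± 0.12), Hoxc10 (-0.51 ± 0.10) and Hoxc4 (-0.60 ± 0.14) fell in HoxC (log2 fold changes with SE). In HoxD, Hoxd11, Hoxd10 and Hoxd4 (-0.84 ± 0.21) fell. In group 3 both Hoxb3 and Hoxa3 fell, while Hoxd3 (-0.40 ± 0.18) did not pass. In groups 4, 5 and 9 the HoxB member did not pass and 2 of its paralogs fell.

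**Figure D4:**
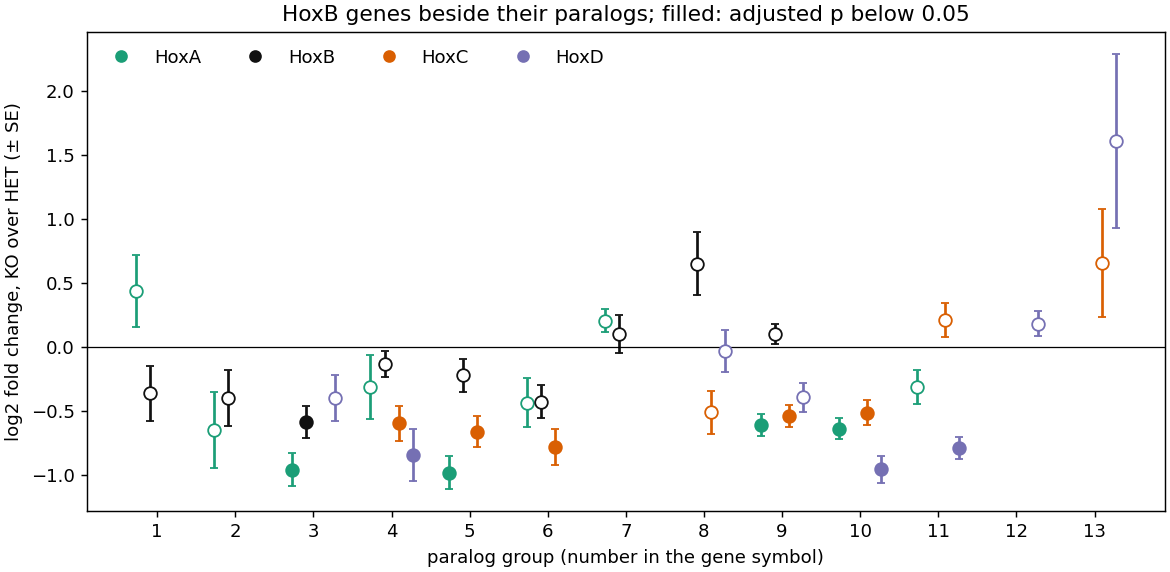
Log2 fold change of KO over HET with its SE for all Hox genes tested, by paralog group and cluster, filled where the adjusted p was below 0.05. HoxB genes (black) reach from -0.59 (Hoxb3) to 0.65 (Hoxb8), and in groups 4, 5 and 9 they lie above their paralogs.

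As a share of the transcripts of all Hox genes, HoxB stood higher in KO. It made up 16.8%, 16.1% and 17.3% of Hox TPM in KO libraries and 13.3%, 12.4% and 13% in HET libraries. The groups did not overlap (3 against 3 libraries allow no exact 2-sided permutation p below 0.1), although the HoxB sum itself was 112, 104 and 113 TPM in KO libraries and 143, 119 and 120 TPM in HET libraries. The sums of the other clusters lay further apart, at 223 ± 14.8 and 353 ± 28.7 TPM for HoxA, 234 ± 13.3 and 362 ± 22.5 TPM for HoxC and 89.1 ± 8.51 and 145 ± 13.1 TPM for HoxD in KO and HET libraries (SD, n = 3 each). Such shares are taken within a library and do not depend on the scaling between libraries. Sums of TPM do depend on it. On log2(TPM + 1) the median log2 fold change of all genes averaging 1 TPM or more was -0.13, beside -0.003 with TMM.

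Within paralog groups, Hoxb9 made up 41.4%, 40.2% and 39.4% of group 9 TPM in KO libraries and 31.9%, 29.0% and 31.3% in HET libraries. Hoxb5 made up 44.3% ± 4.93 of group 5 in KO and 33.9% ± 2.45 in HET libraries, and Hoxb4 48.8% ± 0.774 of group 4 in KO and 40.9% ± 2.67 in HET libraries (SD, n = 3 each). Hoxb6 and Hoxb8 likewise had every KO share above every HET share, at 33.2% ± 2.16 of group 6 in KO and 29.3% ± 1.38 in HET libraries, and at 9.21% ± 1.55 of group 8 in KO and 5.89% ± 0.216 in HET libraries. For these 5 members the exact 2-sided permutation test gave p = 0.1, the smallest that 3 against 3 libraries allow, and 0.18 after Benjamini-Hochberg adjustment over the 9 groups compared. The shares of Hoxb1, Hoxb2, Hoxb3 and Hoxb7 overlapped between groups (exact permutation p = 0.3, 0.7, 0.2 and 0.9). In group 3 Hoxb3 held 56.1% ± 2.13 in KO and 52.5% ± 2.48 in HET libraries, so its share did not stand apart although its level fell.

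**Figure D5:**
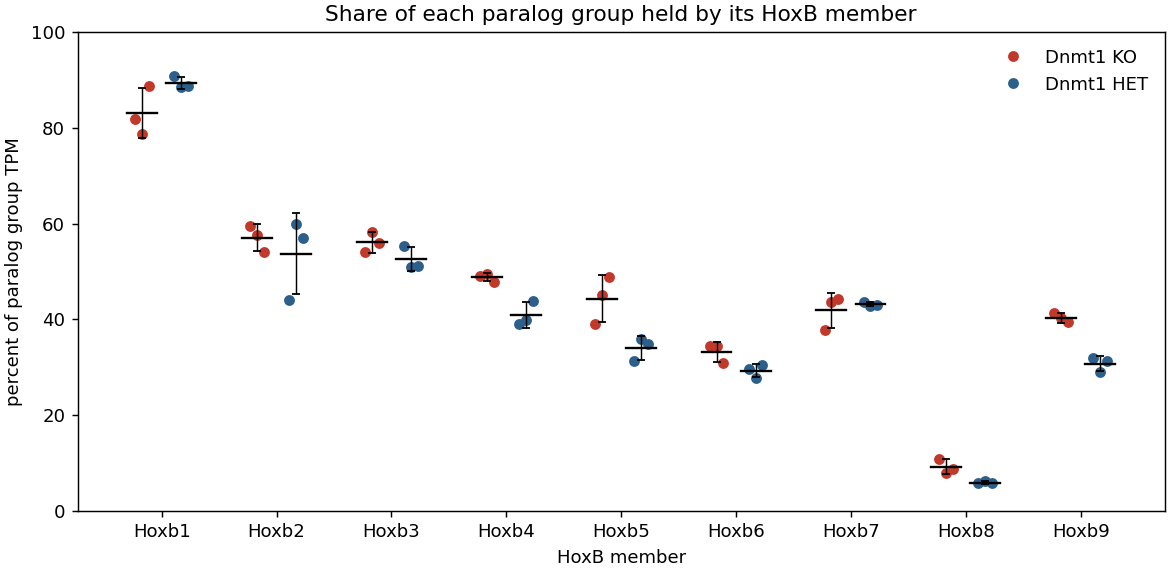
Percent of each paralog group's TPM that came from its HoxB member, KO points left of HET points, with the group mean and 1 SD (n = 3 each). The groups are apart for Hoxb4, Hoxb5, Hoxb6, Hoxb8 and Hoxb9, each with KO above HET.

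Few partners and regulators of Hox genes passed the test. The PBX, MEIS, PKNOX and TGIF families include proteins that bind DNA with Hox proteins. Of 11 genes of these families 0 passed in either direction by edgeR or DESeq2, while limma on log2(TPM + 1) called 1 lower. By edgeR 0 of the 11 were higher and 3 lower at an unadjusted p under 0.05, with a median log2 fold change of -0.17. Of 20 Polycomb genes 0 passed by edgeR, with 2 higher and 3 lower at an unadjusted p under 0.05, while DESeq2 called 1 higher, and the median was -0.02. At that unadjusted threshold 12.4% of all genes tested were higher and 9.61% lower. Of 15 tested genes of the trithorax group and other regulators of Hox clusters, 2 rose, 0 fell and 13 did not pass (edgeR). Among all genes tested 4.92% were higher and 1.92% lower. At an unadjusted p under 0.05, 2 of the 15 were higher and 1 lower by edgeR. The 2 that rose were Rarb, a retinoic acid receptor, and Ash2l, a subunit of histone H3 lysine 4 methyltransferases. Rarb was at 50.3 ± 1.72 CPM in KO and 38.7 ± 2.72 CPM in HET libraries. Ash2l was at 43.06 ± 2.45 CPM in KO and 32.4 ± 3.14 CPM in HET libraries (SD, n = 3 each). Rarb rose by 0.38 ± 0.09 and Ash2l by 0.41 ± 0.10 on the log2 scale (SE; edgeR, adjusted p = 0.0317 and 0.0376). On log2(TPM + 1) limma called 0 of the 15.

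The summed HoxB level was 191, 194 and 199 CPM in KO libraries and 225, 201 and 206 CPM in HET libraries. HET replicate 1 was the highest, and all KO sums lay below all HET sums. Over the 6 libraries, the 5 genes whose log2(CPM + 1) followed the HoxB sum most closely among the 9181 genes that averaged 10 CPM or more were Cpd, a carboxypeptidase (Pearson r = 0.999), Sacm1l, a phosphoinositide phosphatase (0.995), Ctdspl2, a phosphatase (0.995), Zdhhc20, a palmitoyltransferase (0.994), and Caprin1, an RNA-binding protein (0.994). All of them were highest in HET replicate 1, none passed the test between the groups, and with 6 libraries of shared depth these values are a description.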

How the data were processed

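RNA-seq of sorted cap mesenchyme gave 6 libraries, grouped by sample title. Kallisto and the genome build mm10 are named in the submitters' processing notes. Per the file headers, the authors deposited, for each of 96626 transcripts, an estimated count that need not be whole, a TPM value and an effective length. The kallisto version, annotation release and strandedness are not stated in those sources. GENCODE vM1 (NCBIM37) paired 74519 transcripts with 26567 genes, holding 92.4% to 92.82% of counts, so a later transcript of a member would be missed. Of 16 coding HoxB transcripts, 7 had the length given in that annotation, so positions are those of its gene models. Where a symbol had more than 1 gene ID, the ID with the most counts was used.

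Estimated counts were summed per gene, rounded and tested with edgeR 4.0.16 (limma 3.58.1, R 4.3.3): TMM, filterByExpr, robust quasi-likelihood, no covariates, Benjamini-Hochberg over 16989 genes. Adjusted p-values named edgeR are from this fit unless another setting is named, and SE is that of the fitted log2 fold change. TPM was tested as log2(TPM + 1) or log2(TPM + 0.1) with limma for genes averaging 1 TPM or more, or without that filter. Other alternatives were DESeq2 1.42.0, limma voom, library totals, other filters, length offsets, coding transcripts only, sex (Y-linked genes above 50 CPM) as a covariate, the replicate number as a block, and each library left out. The fits were tested on simulated data. Chi-square per degree of freedom between libraries was at least 11.84, so none was a duplicate.

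Named were all members, cluster genes and the 3 nearest coding genes on each side with a mean of at least 1 CPM, up to 4 called genes of each other list reported (the fifth called HoxC gene was added after its values were seen), and the 5 genes most like the HoxB sum. The members and lists were chosen with earlier results of these data known. One gene list is not reported here.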

Additional observations from a re-analysis of the deposited data

How the results depend on the processing

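The count of HoxB members called higher was 0 in all 20 alternatives, and that of members called lower was 1 in 14 of them. It was 2 with library totals and with DESeq2 (Hoxb3 and Hoxb6), 0 on log2(TPM + 1) without a filter and with sex as a covariate, and 0 to 1 with single libraries left out (0 without KO replicate 1 or 2). HoxB transcripts called lower numbered 0, but 1 with library totals and with DESeq2. The median log2 fold change of the members was -0.39 with library totals, -0.33 on log2(TPM + 1) with or without a filter, -0.35 on log2(TPM + 0.1), and -0.32 to -0.16 with single libraries left out, lowest without KO replicate 3. Its gap to the median of all genes was -0.22 in the main fit and with library totals. That gap was -0.20 on log2(TPM + 1) and -0.21 on log2(TPM + 0.1), each with a filter, and -0.29 on log2(TPM + 1) without one. Hoxb9 turned to -0.0612 with library totals, -0.0107 on log2(TPM + 1) with or without a filter and -0.0108 on log2(TPM + 0.1). Less the median of all genes it was 0.1046 with library totals and 0.131 on log2(TPM + 0.1). On log2(TPM + 1) that difference was 0.1157 with a filter and 0.0299 without one. Hoxb7 turned to -0.0642 with library totals, and its range with single libraries left out was -0.0093 (without HET replicate 1) to 0.2133 (without KO replicate 1). Over all genes 836 were higher and 327 lower, with 1356 and 591 by DESeq2, 442 and 660 on log2(TPM + 1), 436 and 646 on log2(TPM + 0.1), 542 higher on log2(TPM + 1) without a filter, 731 and 1883 with library totals, 162 lower with sex, and 526 to 916 higher and 116 to 272 lower with single libraries left out (526 and 116 without KO replicate 2, 170 lower without HET replicate 2 and 171 without HET replicate 3). The causes of these shifts were not tested.

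Same-numbered libraries did not deviate together (correlations -0.058, -0.048 and -0.031). Such values cannot exclude a pairing, because other differences between libraries can hide it, so whether the numbers pair them is not known. With the replicate number as a block 707 genes were higher and 265 lower, HoxB had 0 higher and 1 lower with a median of -0.23, and Hoxb3 had an adjusted p = 0.0453 (edgeR). Depth limits Hoxb2 and Hoxb8 most, with 100 to 229 estimated counts of each per library.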
